A study of Mus musculus with 6 samples.

Results

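The interferon regulatory factors (IRFs) measured here were Irf1, Irf2, Irf3, Irf4, Irf5, Irf7, Irf8 and Irf9. They were taken by gene symbol from a table of 54429 genes, which held all 8 members, and 7 of the 8 passed the filter on low counts that left 16065 genes to test. The cells were primary aortic endothelial cells (EC) of adult wild-type C57BL/6 mice, transduced in culture with a Meis1-overexpressing vector (Meis1-OE) or a control vector (YFP-CTRL), with 3 bulk RNA-seq libraries per condition. All libraries came from cells that had been sorted as YFP+CD31+VEC+ after transduction and grown to confluency, so each holds selected and expanded carriers of a vector. Meis1, a homeobox factor, had counts of 135325, 157828 and 149221 in Meis1-OE and of 39, 58 and 85 in YFP-CTRL. Library totals ran from 34176592 to 47956569 counts. The libraries carry letters in the table (A to C), which are used below as names.

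IRFs are transcription factors that bind the interferon-stimulated response element (ISRE) through a shared DNA-binding domain. Irf3 and Irf7 are activated by kinases downstream of nucleic acid sensors and switch on type I interferon genes, while Irf9 joins Stat2 in the complex that carries the signal of the interferon receptor to the ISRE. Irf1 activates and Irf2 often represses genes through the same element, and Irf4, Irf5 and Irf8 are best known from lymphoid and myeloid cells.

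Promoter sequence is shown for the members whose windows held an interferon-related motif, and for Irf7, the member with the largest fold change. Windows of 300 bases (250 before and 50 after the RefSeq start site, build GRCm38.p6) were searched on both strands, and all 8 members had at least 1 window among their 11. The ISRE core was searched as GAAANNGAAA, and the STAT-binding GAS element as TTCNNNGAA. Irf1 and Irf8 are shown by the 70 bases around their matches. Capitals mark these motifs in the sequences below, which run 5′ to 3′ on the strand of the gene.
Irf2 (chr8:46739495-46739794, plus strand): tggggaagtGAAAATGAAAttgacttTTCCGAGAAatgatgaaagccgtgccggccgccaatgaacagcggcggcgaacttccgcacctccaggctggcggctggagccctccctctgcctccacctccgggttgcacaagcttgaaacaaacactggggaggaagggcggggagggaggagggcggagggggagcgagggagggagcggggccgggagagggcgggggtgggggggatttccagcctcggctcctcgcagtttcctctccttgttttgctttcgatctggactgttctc
Irf1 (chr11:53769894-53769963, plus strand): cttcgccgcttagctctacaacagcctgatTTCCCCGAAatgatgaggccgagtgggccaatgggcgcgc
Irf8 (chr8:120736168-120736237, plus strand): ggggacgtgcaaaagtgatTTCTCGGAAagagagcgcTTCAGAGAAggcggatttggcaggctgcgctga
Irf7 (chr7:141266375-141266674, minus strand): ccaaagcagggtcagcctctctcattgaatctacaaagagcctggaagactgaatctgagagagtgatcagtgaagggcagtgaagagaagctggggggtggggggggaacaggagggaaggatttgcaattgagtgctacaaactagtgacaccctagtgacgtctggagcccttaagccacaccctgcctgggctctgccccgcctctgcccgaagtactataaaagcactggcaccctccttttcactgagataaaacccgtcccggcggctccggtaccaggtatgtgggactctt

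The ISRE core was in the window of 1 member, Irf2, at 241 to 232 bases before its start site, and 3.99% of all 27025 genes (3.44% of 32851 windows) held it. The GAS element was in the windows of 3 members (Irf1, Irf2 and Irf8, the last with 2 matches), and 9.55% of all genes held it. The Irf7 window held neither set of letters. The hexamer TGACAG, a core of MEIS family sites, was in no window of any member and in a window of 21.6% of all genes. These are letter matches, with no binding measured in these files. The only start sites used for Irf5 and Irf7 lay inside their RefSeq loci. The Irf5 window (chr6:29526375-29526674) held no base before its locus, which starts at 29526130.

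Per kilobase of the longest coding transcript, Irf3 and Irf2 were the most abundant members and Irf4 was at the bottom. Irf3 was at 14.7 ± 0.869 CPM (counts scaled to library size) per kilobase in Meis1-OE and 12.3 ± 1.51 in YFP-CTRL (mean ± SD, n = 3 each). Irf2 was at 10.4 ± 0.863 in Meis1-OE and 14.6 ± 4.37 in YFP-CTRL on the same scale. The pair did not keep one order, since Irf3 was above Irf2 in all Meis1-OE libraries and in YFP-CTRL C but below it in YFP-CTRL A and B. Irf9 followed at 3.89 ± 0.362 and 2.40 ± 1.31, then Irf7 at 3.81 ± 1.25 and 1.08 ± 1.03, and Irf1 at 2.21 ± 0.15 and 2.02 ± 0.704 (Meis1-OE and YFP-CTRL in turn). The levels of Irf9 and Irf7 in Meis1-OE lay within each other's spread. Irf8 came next at 1.43 ± 0.338 and 1.16 ± 0.554, and Irf5 at 0.273 ± 0.0709 and 0.141 ± 0.0372. This order is by the mean over all 6 libraries, and in YFP-CTRL alone Irf7 was below Irf1 and Irf8. With the summed exons of each gene as its length, Irf2 moved above Irf3 and Irf7 above Irf9 by that mean, while in YFP-CTRL Irf7 stayed below Irf9 and Irf1.

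**Figure D1:**
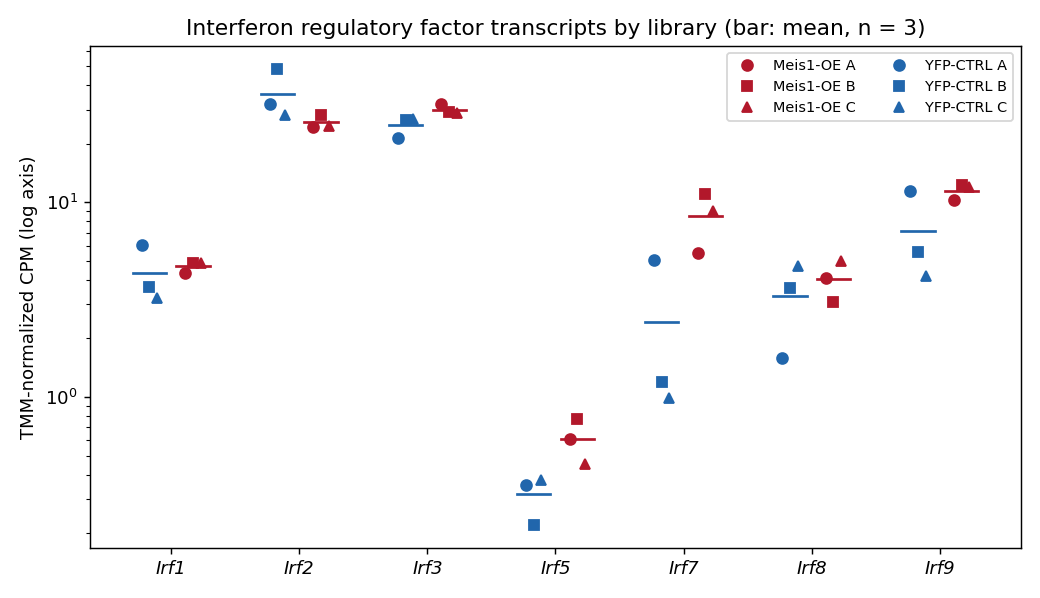
TMM-normalized CPM (log axis) of the 7 tested IRFs in each library, red for Meis1-OE and blue for YFP-CTRL, with the library letter as the symbol and the group mean (n = 3) as a bar. Irf2 in YFP-CTRL B (48.6) and Irf7 in YFP-CTRL A (5.06) stand away from the other control libraries.

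No IRF passed the test between Meis1-OE and YFP-CTRL, at an adjusted p under 0.05 in edgeR's quasi-likelihood test over all genes. Over all tested genes 4.14% were called higher and 2.73% lower, which gives the background for 0 of 7 members in each direction. At an unadjusted p under 0.05, 2 members were higher (Irf5 and Irf7) and 0 lower. In 3 members (Irf3, Irf5 and Irf7) every Meis1-OE library was above every YFP-CTRL library, against 17.2% of all tested genes, and in 0 members was every Meis1-OE library below, against 15.9%. The median log2 fold change was 0.29 over the 7 members and 0.01 over all tested genes. With library totals in place of TMM scaling the median of all genes moved to 0.15, and the calls split into 1048 higher and 179 lower in place of 665 and 438, while no member was called.

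Irf2 (chr8:46739745-46847458), a factor that competes with Irf1 for its sites, had the only negative estimate. Its CPM was 24.3, 28.2 and 24.8 in Meis1-OE and 32.0, 48.6 and 28.2 in YFP-CTRL, each in the order A, B, C. YFP-CTRL B was far above the rest, and the groups met at Meis1-OE B and YFP-CTRL C, where the values were nearly equal, with Meis1-OE B the higher. The log2 fold change was -0.49 (SE 0.21, 95% interval -0.99 to 0.0023, adjusted p = 0.192), a level 0.710 times that of the controls. Without YFP-CTRL C, Irf2 was called lower (-0.66, adjusted p = 0.0413), in a fit that called 15.2% of all genes lower. Without YFP-CTRL B the estimate shrank to -0.22 (adjusted p = 0.428), and the adjusted p over the 12 alternative settings ran from 0.0413 to 0.548. Gm31172 and Gm39170 overlap the Irf2 locus in RefSeq, and whether counting used strand is not given in the sources used here.

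The profile of Irf2 across the libraries was set against the 10221 genes with a mean of at least 5 CPM. Nipsnap2 was the most like it (Pearson's r 0.996 over 6 libraries), followed by Kctd9 (0.993) and Rbbp8 (0.986). In all, 66 of the 10221 genes had an r above 0.95, and the 6 points come from 2 conditions. Among the members, Irf2 ran most against Irf5 (r -0.70, 6 libraries), a description of the same counts and no test.

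Irf1 (chr11:53770014-53778374), an activator that responds to interferon gamma, was close to level between the conditions. Its CPM was 4.35, 4.91 and 4.90 in Meis1-OE and 6.04, 3.68 and 3.24 in YFP-CTRL, so YFP-CTRL A was the highest library of all and the groups overlapped. The log2 fold change was 0.13 (SE 0.26, 95% interval -0.47 to 0.74, adjusted p = 0.785 in edgeR). It changed sign without YFP-CTRL C, to -0.04.

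Irf3 (chr7:44997648-45002848), which is present before any stimulus and is activated by phosphorylation, was slightly higher in every Meis1-OE library. Its CPM was 31.9, 29.1 and 28.7 in Meis1-OE and 21.4, 26.6 and 26.8 in YFP-CTRL. The groups did not overlap, but the gap between the lowest Meis1-OE and the highest YFP-CTRL library was small beside the spread of the controls. The log2 fold change was 0.26 (SE 0.13, 95% interval -0.05 to 0.57, adjusted p = 0.261 in edgeR).

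Irf7 (chr7:141263183-141266499), an interferon-inducible factor that amplifies type I interferon production, had the largest estimate of the family. Its CPM was 5.49, 11.0 and 9.07 in Meis1-OE and 5.06, 1.20 and 0.990 in YFP-CTRL, again in the order A, B, C. The lowest Meis1-OE library stood just above YFP-CTRL A, and far above YFP-CTRL B and C. The log2 fold change was 1.83 (SE 0.63, 95% interval 0.37 to 3.30, adjusted p = 0.123 in edgeR), a 3.56-fold difference. Without YFP-CTRL A it was 2.94 and called (adjusted p = 0.0122), in a fit that called 3.73% of all genes higher. DESeq2, run on all libraries, also called it (log2 fold change 1.82, adjusted p = 0.0128) and called 6.18% of its genes higher. Over the 12 alternatives the adjusted p ran from 0.0122 to 0.340.

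Irf9 (chr14:55603985-55610030), the DNA-binding part of the complex with Stat2, had a profile like that of Irf7. Its CPM was 10.3, 12.3 and 12.0 in Meis1-OE and 11.5, 5.59 and 4.18 in YFP-CTRL A, B and C. Only YFP-CTRL A reached the Meis1-OE range, and there it exceeded Meis1-OE A. The log2 fold change was 0.70 (SE 0.35, 95% interval -0.13 to 1.53, adjusted p = 0.257 in edgeR). Without YFP-CTRL A it was 1.22 and called (adjusted p = 0.0221), and over the 12 alternatives the adjusted p ran from 0.0171 to 0.501.

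**Figure D2:**
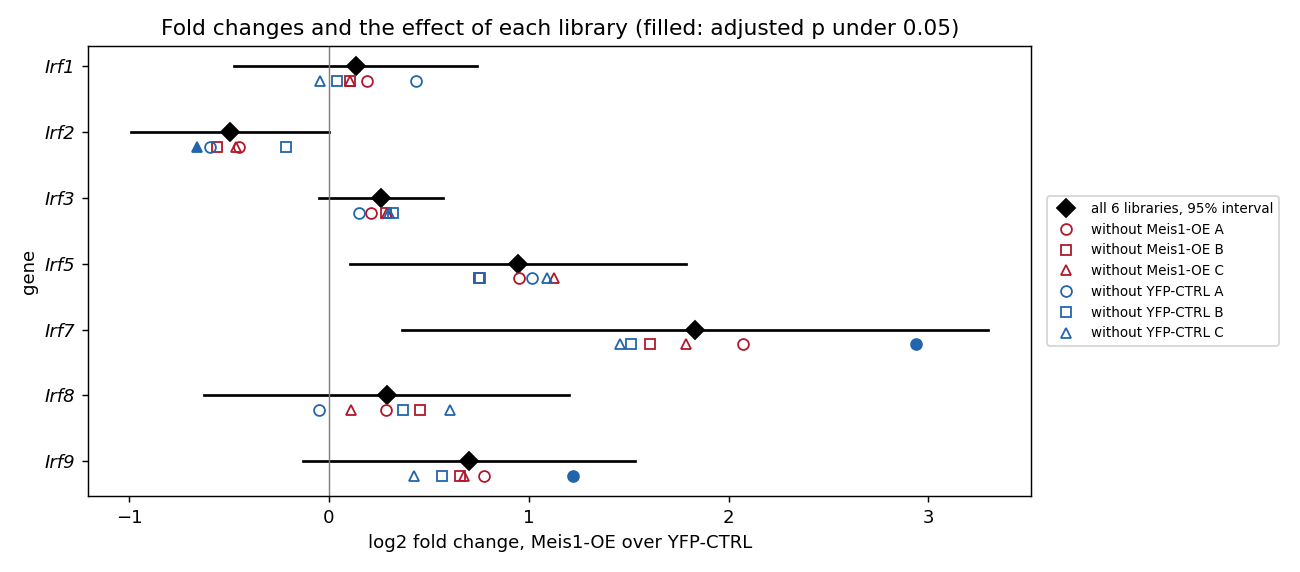
Log2 fold change of the 7 tested IRFs (Meis1-OE over YFP-CTRL), with the 95% interval from all 6 libraries as a black line and the estimates without each library as coloured symbols, filled where the adjusted p was under 0.05. Filled symbols appear for Irf2 without YFP-CTRL C and for Irf7 and Irf9 without YFP-CTRL A.

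YFP-CTRL A was above both other control libraries in Irf7, Irf9 and Irf1, and below both in Irf8 and Irf3. Its level over the mean of YFP-CTRL B and C was 4.62 for Irf7, 2.36 for Irf9 and 1.75 for Irf1, but 0.833 for Irf2, 0.801 for Irf3, 1.19 for Irf5 and 0.381 for Irf8. The median of this ratio was 2.40 over 28 tested ISRE target genes and 0.993 over all tested genes with a defined ratio. YFP-CTRL A was the highest control library for 21 of the 28, or 75.0%, and for 36.5% of all tested genes. Across the 6 libraries Irf7 and Irf9 had a Pearson's r of 0.957, Irf1 and Irf9 of 0.895 and Irf1 and Irf7 of 0.769, as descriptions over points that share their libraries.

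The same library was low in proliferation genes. The mean log2(CPM + 1) of 15 S and G2/M phase genes was 4.29 in YFP-CTRL A, 5.24 in YFP-CTRL B and 6.45 in YFP-CTRL C, against 6.46, 6.46 and 6.52 in Meis1-OE, and none of the 15 was called. Without YFP-CTRL C, 14 of the 15 were called higher and their median log2 fold change went from 0.89 to 1.72. Leaving out that library raised the calls higher over all genes too, to 2684 of 16054 from 665 of 16065. With the mean S and G2/M level as a covariate, Irf7 (log2 fold change 3.44, adjusted p = 0.0249) and Irf9 (1.59, adjusted p = 0.0171) were called higher. The covariate fit called 2.45% of all genes higher. Irf8 changed sign in that fit, to -0.39. The level followed the conditions in part. It ran only from 6.46 to 6.52 in Meis1-OE but from 4.29 to 6.45 in YFP-CTRL. The slope of the covariate was thus set mainly by the 3 controls, among them YFP-CTRL A. This fit is therefore not separate from the spread of the controls, and the part of the level in the IRF values was not tested.

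**Figure D3:**
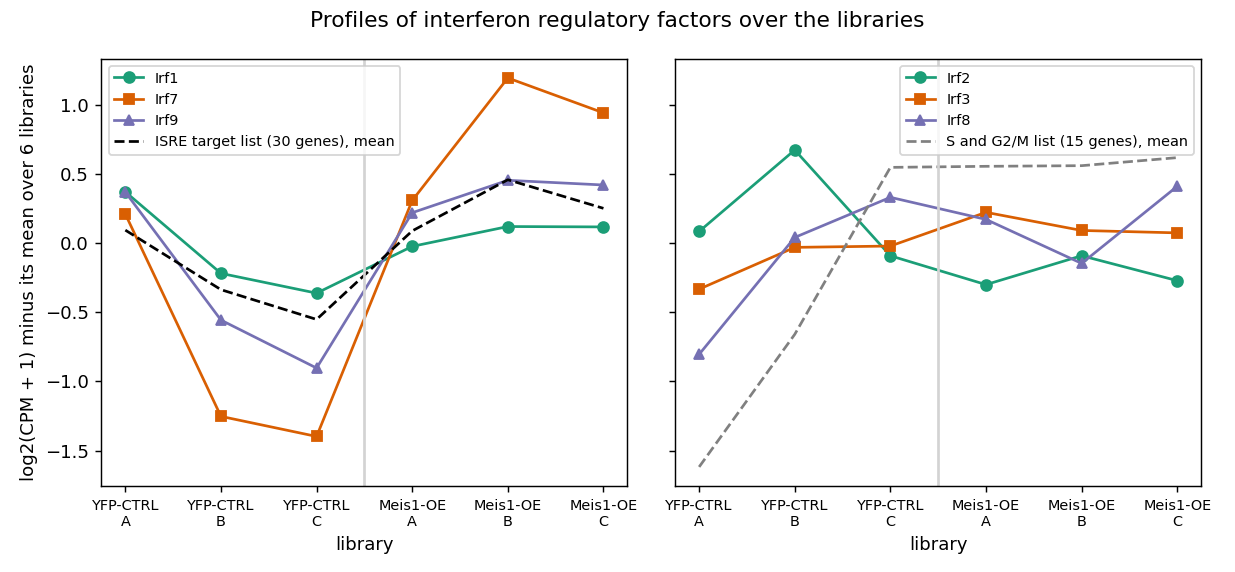
Log2(CPM + 1) of each gene minus its mean over the 6 libraries, with Irf1, Irf7, Irf9 and the mean of 30 ISRE target genes on the left and Irf2, Irf3, Irf8 and the mean of 15 S and G2/M phase genes on the right. On the left YFP-CTRL A lies above YFP-CTRL B and C in every line, and on the right it has the lowest Irf8 and the lowest proliferation level.

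Irf5 (chr6:29526130-29541869), a driver of inflammatory cytokine genes in myeloid cells, was low in every library. It had 28, 35 and 21 counts in Meis1-OE and 12, 9 and 17 in YFP-CTRL, or 0.613, 0.771 and 0.454 CPM against 0.353, 0.221 and 0.374. The groups did not overlap. The log2 fold change was 0.95 (SE 0.36, 95% interval 0.11 to 1.79, adjusted p = 0.151 in edgeR). Irf5 overlaps Tnpo3 in RefSeq, whose mean level was 119 CPM in Meis1-OE and 147 in YFP-CTRL, and without strand their reads cannot be told apart in the shared bases.

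Irf8 (chr8:120736358-120756694), a factor of myeloid and dendritic cell development, was measured at several CPM in most libraries. Its CPM was 4.09, 3.08 and 5.01 in Meis1-OE and 1.59, 3.65 and 4.69 in YFP-CTRL, with YFP-CTRL A lowest and the groups otherwise overlapping. The log2 fold change was 0.29 (SE 0.39, 95% interval -0.62 to 1.20, adjusted p = 0.678 in edgeR), and it was -0.05 without YFP-CTRL A. Irf4 (chr13:30749233-30766981), a lymphoid factor, had at most 2 counts in any library, under the limit of 3 counts that a count of 0 allows, and was not tested.

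Most markers of blood cells were at or near 0, and the exceptions were Cd68, Csf1r and Lyz2. Of 13 leukocyte markers, 4 were at 0 in every library (C1qa, C1qb, Tyrobp and Adgre1), and the 10 that failed the filter had at most 11 counts, the pan-leukocyte gene Ptprc at most 4. The 3 tested were Cd68, Csf1r and Lyz2, none called, and the summed level of the list was 70.1 to 106 CPM in Meis1-OE and 65.5 to 140 in YFP-CTRL, nearly all of it from Cd68, a lysosomal gene. Csf1r, the receptor of myeloid growth factors, was at 0.328 to 0.573 CPM in Meis1-OE and 0.0294 to 0.264 in YFP-CTRL (adjusted p = 0.148 in edgeR), and Lyz2, a lysozyme, at 0.131 to 0.881 and 0.154 to 0.236. Cd68 had a negative estimate (log2 fold change -0.23, adjusted p = 0.653 in edgeR). Markers too low to test went both ways. Ptprc had 1, 1 and 0 counts in Meis1-OE and 1, 1 and 4 in YFP-CTRL, and Itgam 3, 1 and 2 against 1, 0 and 0. The Csf1r and Lyz2 levels are of the size of those of Irf5, whose estimate was also positive. Their part in the Irf5 values was not tested. All 8 endothelial markers were measured, with summed levels of 3223 to 4007 CPM in Meis1-OE and 4360 to 5961 in YFP-CTRL. Their estimates split into 4 positive and 4 negative, with a median log2 fold change of -0.018. Tie1 (0.07), Erg (0.10), Eng (0.11) and Emcn (0.09) were positive with overlapping groups. Tek was called lower (log2 fold change -0.78, adjusted p = 0.0351 in edgeR). Kdr (-1.23, adjusted p = 0.0504) and Cdh5 (-0.70, adjusted p = 0.0535) just missed the threshold with no overlap of the groups. Thus 1 of the 8 was called lower, against 2.73% of all tested genes. In 3 of the 8 every Meis1-OE library was below every YFP-CTRL library, against 15.9%. DESeq2 and the fit without YFP-CTRL C each called 3 endothelial markers lower. Over all genes these fits called 1097 and 2463 lower, of the 16065 and 16054 shared with the main fit. No endothelial marker was called without Meis1-OE A, B or C or YFP-CTRL B. Of 10 fibroblast and smooth muscle markers, 3 were tested and none called, and the summed level of the list was 15.8 to 17.8 CPM in Meis1-OE and 34.9 to 54.2 in YFP-CTRL. With no filter, DESeq2, the proliferation covariate or YFP-CTRL C left out, 1 of the 3 was called lower. Of the 16065 genes of the main fit, 385 were called lower with no filter and 327 with the covariate. The median log2 fold change of the 3 was -1.47, and 0.54 without YFP-CTRL C. In such bulk libraries fewer cells of a type and less RNA per cell cannot be told apart.

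The interferons themselves were almost not detected. Of 21 interferon genes, 16 were at 0 in all libraries and the 20 not tested had at most 3 counts, the most being in Ifnb1, the first type I interferon made by most cells. Ifne was the single gene tested, at 0.419 to 0.626 CPM in Meis1-OE and 0.245 to 0.506 in YFP-CTRL (log2 fold change 0.65, adjusted p = 0.329 in edgeR).

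Among sensors, adaptors and kinases upstream of the IRFs, 2 of 22 tested genes rose, 9.09% against the 4.14% of all genes, and 0 fell. Dhx58, a cytosolic RNA sensor of the RIG-I family, was at 4.31, 7.16 and 6.37 CPM in Meis1-OE and 2.53, 1.15 and 1.67 in YFP-CTRL (log2 fold change 1.74, SE 0.33, adjusted p = 0.0285). Irak2, a kinase of Toll-like receptor signaling, was at 22.5, 26.4 and 27.1 CPM against 9.60, 11.4 and 13.9 (1.12, SE 0.17, adjusted p = 0.0136). In both genes the groups did not overlap, but both lost their call without Meis1-OE B (adjusted p = 0.143 for Dhx58 and 0.0875 for Irak2), Meis1-OE C (0.127 and 0.0823) or YFP-CTRL B (0.0915 and 0.0666), and Dhx58 also without Meis1-OE A (0.0532). The kinases that phosphorylate Irf3 and Irf7 did not pass the test, with log2 fold changes of 0.09 for Tbk1 (adjusted p = 0.645) and 0.36 for Ikbke (adjusted p = 0.370). The median over the list was 0.24.

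Of 16 tested interferon receptor and JAK-STAT genes, 1 rose and 1 fell (6.25% each), near the 4.14% and 2.73% of all genes. Stat2, a partner of Irf9, rose, at 16.6, 23.0 and 23.8 CPM in Meis1-OE and 11.7, 8.97 and 11.2 in YFP-CTRL (log2 fold change 0.99, SE 0.19, adjusted p = 0.0266 in edgeR). YFP-CTRL A was its highest control, still below all Meis1-OE libraries. Stat2 was not called without Meis1-OE B (adjusted p = 0.15), Meis1-OE C (0.137) or YFP-CTRL B (0.0915), nor with the proliferation covariate introduced above (0.0719). Jak2, a receptor-bound kinase, fell, from 38.9, 46.5 and 32.4 CPM in YFP-CTRL to 22.3, 25.5 and 25.7 in Meis1-OE (-0.68, SE 0.16, adjusted p = 0.0483). Jak2 lost its call when any library but YFP-CTRL C was left out, with adjusted p from 0.0749 (without YFP-CTRL A) to 0.205 (without Meis1-OE B). The receptor chains had log2 fold changes of 0.12 for Ifnar1, 0.03 for Ifnar2, -0.10 for Ifngr1 and 0.16 for Ifngr2, with adjusted p from 0.518 to 0.907 in edgeR. The median over the list was 0.14.

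ISRE target genes had the highest median of the pathway lists, 0.87 over 28 tested of 30. Of these, 5 rose (17.9%, against 4.14% of all genes) and 0 fell, 24 had positive estimates, and in 12 (42.9%, against 17.2%) the groups did not overlap. Xaf1, an inhibitor of XIAP, was at 20.5, 37.3 and 34.4 CPM in Meis1-OE and 15.1, 6.40 and 6.23 in YFP-CTRL (log2 fold change 1.74, SE 0.40, adjusted p = 0.0465). Eif2ak2, the RNA-activated kinase PKR, was at 37.2, 50.5 and 43.7 CPM against 20.3, 20.9 and 28 (0.92, SE 0.18, adjusted p = 0.0287). Both were higher in every Meis1-OE library. Uba7, the activating enzyme for Isg15, rose by 0.95 on the log2 scale (SE 0.18, adjusted p = 0.0279). Oas2, an enzyme that makes the activator of RNase L, passed at very low depth, with 13, 20 and 20 counts in Meis1-OE and 1, 1 and 0 in YFP-CTRL. Its ratio of summed counts, scaled to library size, was 23.2 (95% interval 6.11 to 196, counting error only). The log2 fold change in edgeR was 4.30 (SE 0.64, adjusted p = 0.0128). Parp9 (1.14, adjusted p = 0.0488) also passed and was named after its values were seen. Isg15, the ubiquitin-like modifier, did not pass (0.84, adjusted p = 0.291), at 1.29, 2.27 and 1.79 CPM against 1.68, 0.858 and 0.484.

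The ISRE target genes shared the split of the controls seen in Irf7 and Irf9. In 21 of the 28 (75.0%) every Meis1-OE library was above YFP-CTRL B and C, against 21.7% of all tested genes. YFP-CTRL A was set aside here after its high level in these same genes was seen, which by itself favours the list. With YFP-CTRL A included the share was 12 of the 28 (42.9%, against 17.2%). Without YFP-CTRL A the list's median was 1.19 and 10 genes were called, and with the proliferation level as a covariate the values were 1.74 and 12. Those fits called 3.73% and 2.45% of all genes higher, in turn. The count of 5 went to 2 without Meis1-OE A, to 9 without YFP-CTRL C, and to 0 without Meis1-OE B, Meis1-OE C or YFP-CTRL B. In those last 3 fits the sensors, the JAK-STAT genes and the other lists below also had 0 calls. Calls over all genes fell too in those 3, to between 115 and 204 higher and between 16 and 65 lower. Without Meis1-OE A they were 320 higher and 67 lower. Without YFP-CTRL C they rose to 2684 higher and 2463 lower, of 16054 genes also tested in the main fit.

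**Figure D4:**
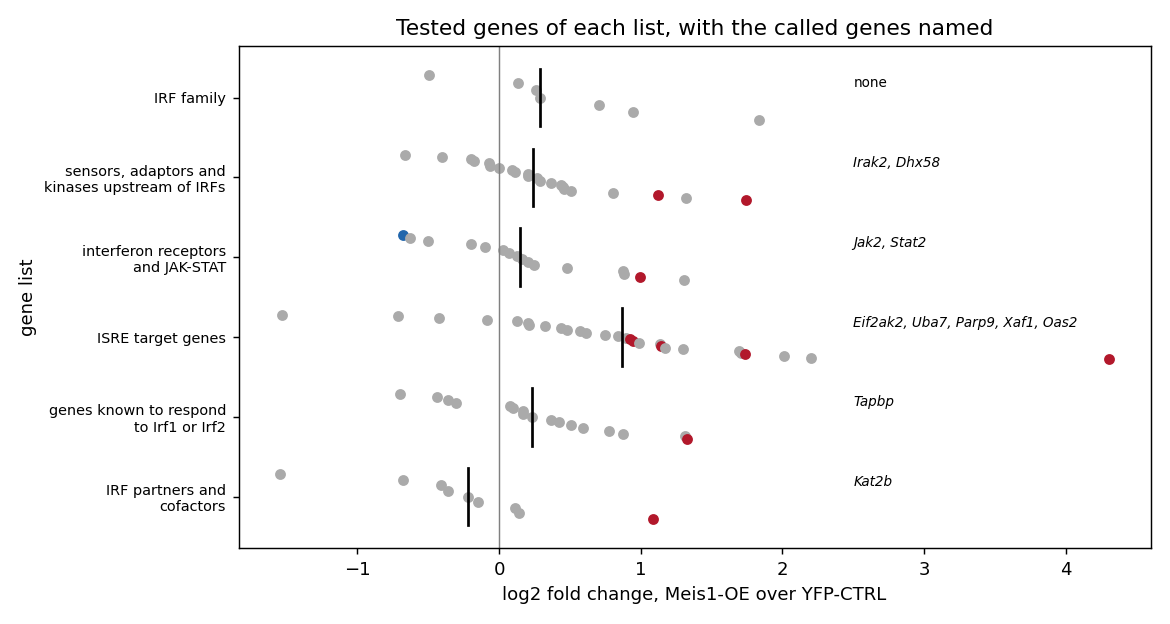
Log2 fold change (Meis1-OE over YFP-CTRL) of every tested gene in 6 lists, sorted within each list, with red and blue points for genes called higher and lower at an adjusted p under 0.05, their names on the right and the list median as a bar. The ISRE target genes have the highest median (0.87), and no IRF is called.

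Genes known to respond to Irf1 or Irf2 gave 1 call in 17 tested (5.88%, near the 4.14% called higher over all genes), with a median of 0.23. It was Tapbp, the tapasin that loads peptide onto MHC class I, at 30.1, 42.2 and 44.9 CPM in Meis1-OE and 14.8, 14.8 and 17.2 in YFP-CTRL (log2 fold change 1.33, SE 0.18, adjusted p = 0.00966). Without Meis1-OE B, Meis1-OE C or YFP-CTRL B its adjusted p was 0.0649, 0.0568 and 0.050, in each case just over the threshold. Other genes of antigen presentation and pyroptosis did not pass. Tap1, the peptide transporter, had a log2 fold change of 0.36 (adjusted p = 0.436), Psmb9, an immunoproteasome subunit, of 0.42 (adjusted p = 0.607), and Gsdmd, the pore-forming gasdermin that Irf2 is known to maintain, of 0.17 (adjusted p = 0.572). Gsdmd was at 16.1, 16.8 and 18.1 CPM in Meis1-OE and 12.1, 15.3 and 18 in YFP-CTRL, with the highest libraries of both groups level.

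Of 9 tested partners and cofactors of the IRFs, 1 rose (11.1%) and 0 fell, against 4.14% and 2.73% of all genes, and the median was -0.22. Kat2b, the histone acetyltransferase PCAF that binds Irf1 and Irf2, was at 15, 17.5 and 18.7 CPM in Meis1-OE and 5.89, 6.91 and 11.3 in YFP-CTRL (log2 fold change 1.08, SE 0.25, adjusted p = 0.0489). It was not called without any one of Meis1-OE A, B or C or YFP-CTRL A or B (adjusted p from 0.0692 to 0.20). The corepressor Irf2bp2 was at 136, 130 and 144 CPM against 307, 225 and 125, with YFP-CTRL C below all others and an adjusted p of 0.191 (log2 fold change -0.68). Its relatives Irf2bp1 (0.11) and Irf2bpl (-0.15) did not pass either. Of the hematopoietic partners, Spi1, Spib and Batf had at most 4 counts and Batf2 at most 10. Batf3, a partner of Irf8 in dendritic cells, was at 2.08, 1.67 and 1.97 CPM in Meis1-OE and 1.62, 4.83 and 10.2 in YFP-CTRL, with overlapping groups (log2 fold change -1.55, adjusted p = 0.147). Batf2 and Batf3 were named after their values were seen.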

How the data were processed

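RNA-seq libraries from transduced aortic EC were analysed, 3 of Meis1-OE and 3 of YFP-CTRL, transduced as independent replicates according to the study's methods. The authors deposited 1 table of estimated counts per gene, not normalized. The genome build in the submitters' processing notes is mm10. The aligner and the counting tool are not given in the sources used here. Columns carry letters, so they were matched to conditions and not to single sample labels.

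Estimated counts were rounded. Genes passing edgeR's filterByExpr were fitted with TMM scaling and the quasi-likelihood test (edgeR 4.0.16, R 4.3.3), with Benjamini-Hochberg adjustment over all tested genes and a threshold of 0.05. CPM used TMM library sizes, and standard errors were derived from the F statistic. The 12 alternatives were DESeq2 (1.42.0), its size factors, library totals, no filter, a block by column letter, a proliferation covariate and leaving out each library. The scripts were tested on simulated data. Same-letter libraries had deviation correlations of 0.245, 0.190 and 0.0809. Different-letter libraries had 0.249 for Meis1-OE C with YFP-CTRL B and otherwise negative values, down to -0.301. These values did not settle whether the letters pair the libraries, so the main fit took no pairs.

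The members and lists were chosen with earlier results of these data known. Named genes were the members, each list's calls (the 2 most positive and 2 most negative where more than 4 passed), a preset set (Stat2, Tbk1, Ikbke, the receptor chains, the Irf2bp genes, Isg15, Tap1, Psmb9 and Gsdmd), and the 3 genes most like Irf2. A pair of genes was left out of these lists and is not reported here. Gene lengths came from GENCODE vM1, and loci and promoters from RefSeq, GRCm38.p6. Intervals and count limits cover counting error or library spread only. A single value compared over 3 against 3 libraries cannot go below an exact permutation p of 0.1, so none was run.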

Additional observations from a re-analysis of the deposited data

How the results depend on the processing

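No IRF was called in edgeR with all libraries under other scaling, no filter or the replicate block, and with library totals the estimates rose with the median of all genes. The count of IRFs called higher, 0, was 1 with DESeq2, 2 with the proliferation covariate and 0 to 2 with 1 library left out, and the count lower was 0 to 1. With 1 library left out, the estimate of Irf1 ran from -0.044 (without YFP-CTRL C) to 0.44 and that of Irf8 from -0.051 (without YFP-CTRL A) to 0.60. With the covariate that of Irf8 was -0.39. The cause was not tested.

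Sensors and kinases gave 2 higher and 0 lower. The count higher was 3 with DESeq2 and with the covariate, 4 with library totals and 1 with the replicate block. It was 0 to 5 with 1 library left out. The count lower was 1 with DESeq2 and with the covariate, and 0 to 2 left out. Receptors and JAK-STAT genes gave 1 higher (3 with library totals and with DESeq2, 0 with the replicate block, 0 to 4 left out) and 1 lower (0 with library totals, no filter, the block and the covariate, 0 to 2 left out). ISRE targets gave 5 higher and 0 lower. The count higher was 12 with DESeq2 and with the covariate, 7 with no filter and 6 with library totals. It was 2 with the replicate block and 0 to 10 left out, and the count lower was 0 to 2 left out. Genes responding to Irf1 or Irf2 gave 1 higher (2 with library totals and the covariate, 3 with DESeq2, 0 to 3 left out). Partners gave 1 higher (0 with the covariate, 0 to 2 left out) and 0 lower (2 with DESeq2, 1 with the covariate, 0 to 3 left out). Over the genes of the main fit, calls were 665 higher and 438 lower, and 1079 and 1097 with DESeq2. They were 632 and 385 with no filter, 544 and 189 with the block, and 394 and 327 with the covariate. With 1 library left out they ran from 115 to 2684 higher and from 16 to 2463 lower.

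With the replicate block by column letter, the log2 fold change of Irf7 was 2.16 (adjusted p = 0.131) and that of Irf2 -0.46 (adjusted p = 0.149). The letters were not shown to pair the libraries. Low counts limit what can be said of Irf4, Irf5, Oas2, Psmb9 and the interferon genes.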
